A study of Mus musculus with 272 samples.

Results

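The AP-1 transcription factor family was described in mouse muscle stem cells (MuSCs) through 8 genes, *Fos*, *Fosb*, *Fosl1*, *Fosl2*, *Jun*, *Junb*, *Jund* and *Atf3*. They were chosen by gene name in the GENCODE M21 annotation of mm10 and are 8 of its 21938 protein-coding genes. All 8 were found. The study examined CRISPR-Cas9 repair outcomes in MuSCs and holds 272 samples, of which the peak lists of 8 libraries were used here. These are 2 replicates each of ATAC-seq, which maps open chromatin, and of ChIP-seq for H3K4me3, H3K27ac and H3K27me3. The cells came from hindlimb muscle of Pax7Cas9 mice, in which a Pax7-driven Cre switches on Cas9 and GFP from a Cre-dependent knock-in, and were sorted as GFP+ cells after digestion with collagenase II and dispase. No sgRNA, virus or other treatment is named for these libraries, and age is not given for them in the sources used here. The Cas9 parent was a B6;129 stock, and the strain of the offspring is not stated. All 8 libraries share the genotype, the digestion and the sort, so that chromatin before and after dissociation cannot be told apart. The replicates are named only by number, and whether they came from separate mice is not stated, so that their spread may be technical. *Fos*, *Fosb* and *Junb* are also among the genes that the study cut with pairs of sgRNAs in other mice.

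AP-1 is a dimer of basic leucine zipper (bZIP) proteins. Jun proteins pair with each other or with Fos proteins, whereas Fos proteins need a Jun partner to bind DNA. The dimers bind TGAGTCA or its reverse complement TGACTCA, often in enhancers, and Atf3 and its relatives also bind the cyclic AMP response element (CRE) TGACGTCA. *Fos*, *Fosb*, *Jun*, *Junb* and *Atf3* are immediate early genes, switched on within minutes of serum, stress or injury without new protein synthesis, and *Fosl1* and *Fosl2* tend to follow later. *Jund* is expressed in many resting cells. In muscle, stem cells taken out of their niche are known to raise these genes rapidly. H3K4me3 marks promoters that are active or ready to be used, H3K27ac marks active promoters and enhancers, and H3K27me3 is the mark of Polycomb repression.

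Most of the genes are short, and they lie on 7 chromosomes. *Fos* (ENSMUSG00000021250.13) is on the plus strand at chr12:85473890-85477273, and *Fosb* (ENSMUSG00000003545.3) on the minus strand at chr7:19302696-19310051. *Fosl1* (ENSMUSG00000024912.6) is on the plus strand at chr19:5447547-5455946, and *Fosl2* (ENSMUSG00000029135.10) on the plus strand at chr5:32135801-32157842. Among the Jun genes, *Jun* (ENSMUSG00000052684.4) lies at chr4:95049034-95052222 on the minus strand, *Junb* (ENSMUSG00000052837.6) at chr8:84974484-84978718 on the minus strand and *Jund* (ENSMUSG00000071076.6) at chr8:70698949-70700616 on the plus strand. Their main transcripts have 1 exon each, against 4 exons in *Fos*, *Fosb*, *Fosl1*, *Fosl2* and *Atf3*. *Atf3* (ENSMUSG00000026628.13), at chr1:191170296-191218039 on the minus strand, is the longest with 47744 bp. Positions below are in bases from the start of the main transcript (the one numbered 201 in the annotation), with upstream positions negative. The main start of *Atf3* is at position 191183340 of chromosome 1, and another of its 3 start sites lies at 191218039, which is the end of the annotated gene.

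The sequences just upstream of the starts are shown for 6 genes because they hold the letters of known promoter elements, and because ATAC-seq and H3K4me3 peaks of both replicates overlapped each stretch. They were read from GRCm38.p6 (mm10) on the strand of the gene. Capitals mark exact matches, on either strand, only to the elements named here for each gene. In *Fos* the capitals are a CArG box, the site of serum response factor, and the TATA box TATAAA. In *Fosb* they are a CArG box, in *Jun* the CCAAT box CCAAT, in *Junb* a CCAAT box and TATAAA, in *Jund* a CRE and a CCAAT box, and in *Atf3* GC boxes (GGGCGG), the sites of Sp1-type factors. GC boxes also lie in the stretches of *Fos*, *Fosb*, *Jun* and *Jund*, where they are left in lower case.
*Fos* (chr12:85473570-85473869, plus strand): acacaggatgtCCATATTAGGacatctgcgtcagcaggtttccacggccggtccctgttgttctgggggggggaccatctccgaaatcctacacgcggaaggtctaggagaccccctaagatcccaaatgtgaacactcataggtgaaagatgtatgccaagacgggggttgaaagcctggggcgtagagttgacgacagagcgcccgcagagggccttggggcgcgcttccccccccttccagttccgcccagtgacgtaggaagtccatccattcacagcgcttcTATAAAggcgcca
*Fosb* (chr7:19310052-19310331, minus strand): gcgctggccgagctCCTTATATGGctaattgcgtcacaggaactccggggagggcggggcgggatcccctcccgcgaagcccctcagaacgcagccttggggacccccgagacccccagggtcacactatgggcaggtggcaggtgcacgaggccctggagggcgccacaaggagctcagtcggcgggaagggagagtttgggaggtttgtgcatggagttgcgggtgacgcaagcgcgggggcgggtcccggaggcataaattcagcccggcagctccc
*Jun* (chr4:95052223-95052342, minus strand): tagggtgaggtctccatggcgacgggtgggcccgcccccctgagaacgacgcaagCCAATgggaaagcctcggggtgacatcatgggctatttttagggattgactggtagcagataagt
*Junb* (chr8:84978719-84978838, minus strand): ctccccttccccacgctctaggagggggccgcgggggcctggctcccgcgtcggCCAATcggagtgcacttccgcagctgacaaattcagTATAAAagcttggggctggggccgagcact
*Jund* (chr8:70698729-70698948, plus strand): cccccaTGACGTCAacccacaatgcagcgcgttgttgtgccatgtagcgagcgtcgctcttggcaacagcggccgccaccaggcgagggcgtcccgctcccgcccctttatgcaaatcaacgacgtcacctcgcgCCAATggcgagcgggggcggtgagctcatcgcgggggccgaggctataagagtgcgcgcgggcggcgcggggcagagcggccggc
*Atf3* (chr1:191183341-191183550, minus strand): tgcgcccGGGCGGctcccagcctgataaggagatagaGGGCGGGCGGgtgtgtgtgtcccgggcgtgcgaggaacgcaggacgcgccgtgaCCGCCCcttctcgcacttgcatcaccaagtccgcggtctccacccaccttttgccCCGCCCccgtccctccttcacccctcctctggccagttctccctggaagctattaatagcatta

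In the 500 bases upstream of the main start, a CArG box was found in 2 of 7 members, *Fos* and *Fosb*, against 2.58% of 21905 protein-coding genes. This window was chosen after the 250-base RefSeq promoters had been searched. In those, the CArG box and the CRE were found in 0 of 7 members, against 1.37% and 1.99% of 20150 promoters. The RefSeq start lies at −1210 in *Jund* and at 671 in *Fosl2*, so that in these genes the earlier search covered another place. In *Fos* the CArG box lay at −309 to −300 and in *Fosb* at −266 to −257. The highest ATAC-seq point (summit) of the peak over the *Fos* start was at −307 in replicate 1, inside this CArG box, and at 39 in replicate 2. The peak over the *Fosb* start had its summits at −297 and −275 in the 2 replicates, just upstream of its CArG box. The CRE was found in *Jund* alone, at −214 to −207, against 2.39% of all genes. TATAAA was found in *Fos* at −33 to −28 and in *Junb* at −30 to −25 (24.2% of all genes), about the distance at which a TATA box usually acts. CCAAT was found in 5 members (52.9% of all genes) and GGGCGG in 6 (45.7% of all genes). The AP-1 letters TGAGTCA or TGACTCA were found upstream of 0 of 7 members, against 7.32% of all genes. *Fosl1* was not part of this search. A match here is a string of letters and not a measured binding site, and sites that differ by a base from these strings were not counted.

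In both replicates, all 8 members carried ATAC-seq, H3K4me3 and H3K27ac peaks at the promoter, where a promoter is 3 kb either side of any annotated start site of the gene. Over all protein-coding genes the shares were 67.8% for ATAC-seq, 60.8% for H3K4me3, 46.6% for H3K27ac and 46.2% for all 3 together. H3K27me3 was found at 2 of 8 members in both replicates, *Fosl1* and *Atf3*, against 4.81% of all genes, and no further member had it in either replicate, against 8.49%. Those 2 members therefore carried all 4 features in both replicates, as 0.784% of all genes did. The H3K27me3 peaks of *Fosl1* did not reach a q of 0.05 in either replicate, and with that limit *Atf3* alone remained (6.31% of all genes in either replicate). The remaining 6 had 0 promoter peaks of H3K27me3. With 8 members these shares are a description of the family.

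**Figure D1:**
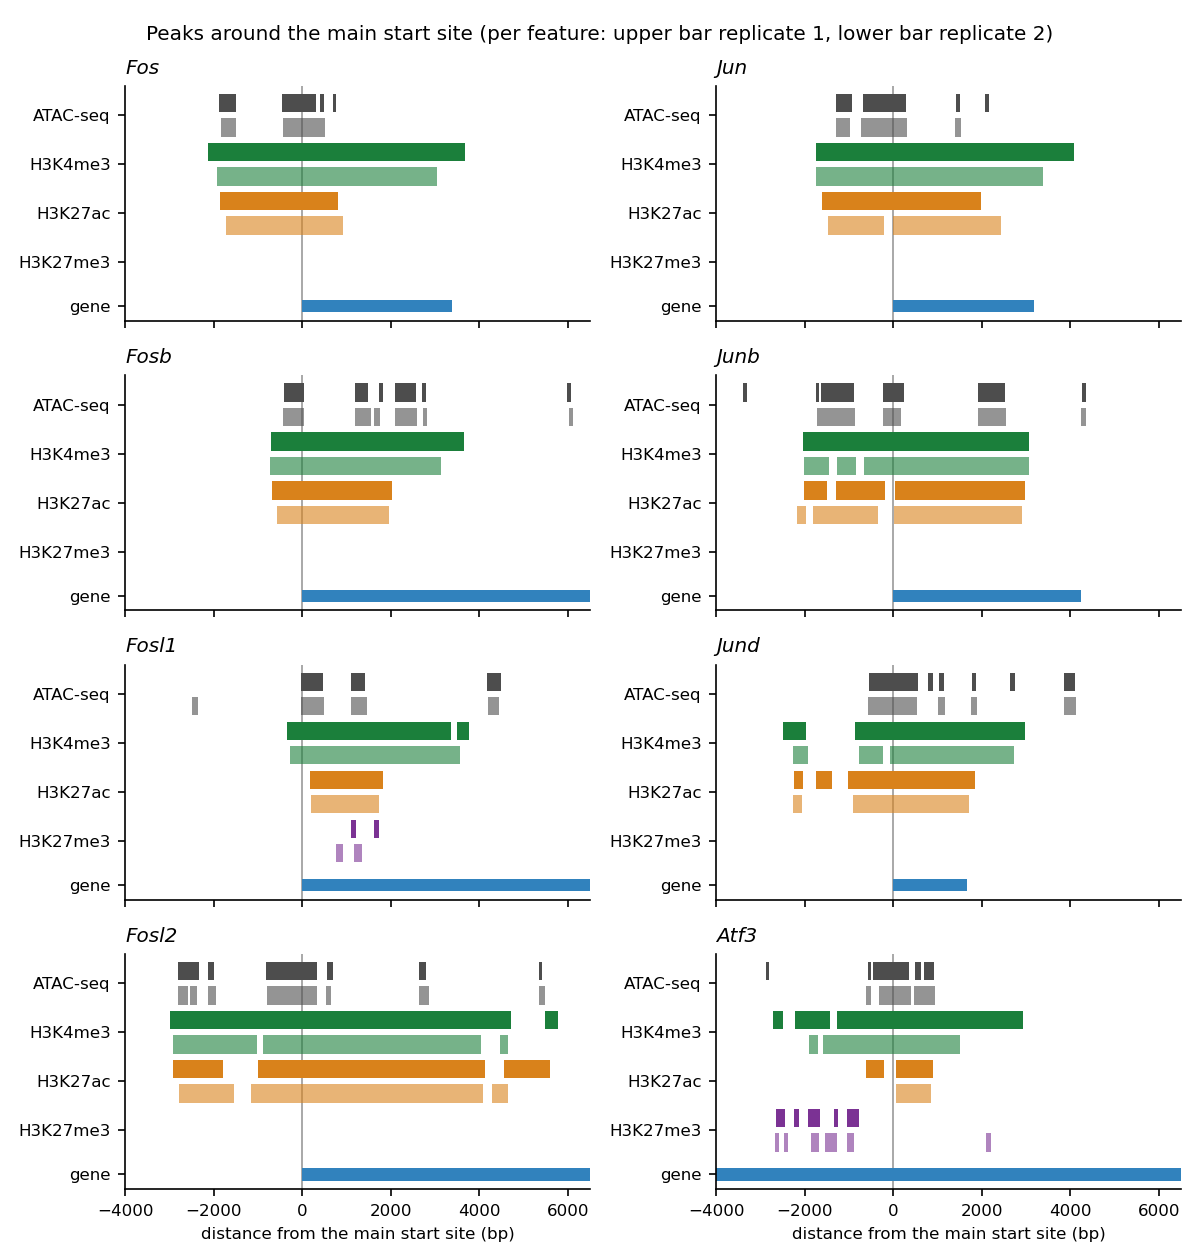
Peaks around the main start site of each AP-1 gene, with distance in bp on the horizontal axis (upstream to the left) and 1 row per feature, where the upper darker bar is replicate 1, the lower paler bar replicate 2 and blue the annotated gene. H3K4me3 reached from upstream of the start into the gene in all 8 members, and H3K27me3 appears only at *Fosl1*, downstream of the start, and at *Atf3*, mainly upstream of it.

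Openness, the promoter mark and acetylation ranked the family differently. The authors' fold enrichment is the signal at a peak's summit over the local background, and it was compared only within a list, as the percent of the other protein-coding genes whose highest promoter peak had a lower value (genes without a peak count as lowest). By this rank the median member stood at 47.2 and 44.3 for ATAC-seq in replicates 1 and 2, at 79.3 and 81.9 for H3K4me3 and at 89.1 and 91.7 for H3K27ac. Because a gene with no peak ranks lowest, the middle of all genes with a peak lies above 50. The ATAC-seq summits of the family were low among open promoters. Among genes with an ATAC-seq promoter peak the median fold was 13.28 and 12.18 in the 2 replicates, above 7 of the 8 members in replicate 1 and in replicate 2 alike.

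**Figure D2:**
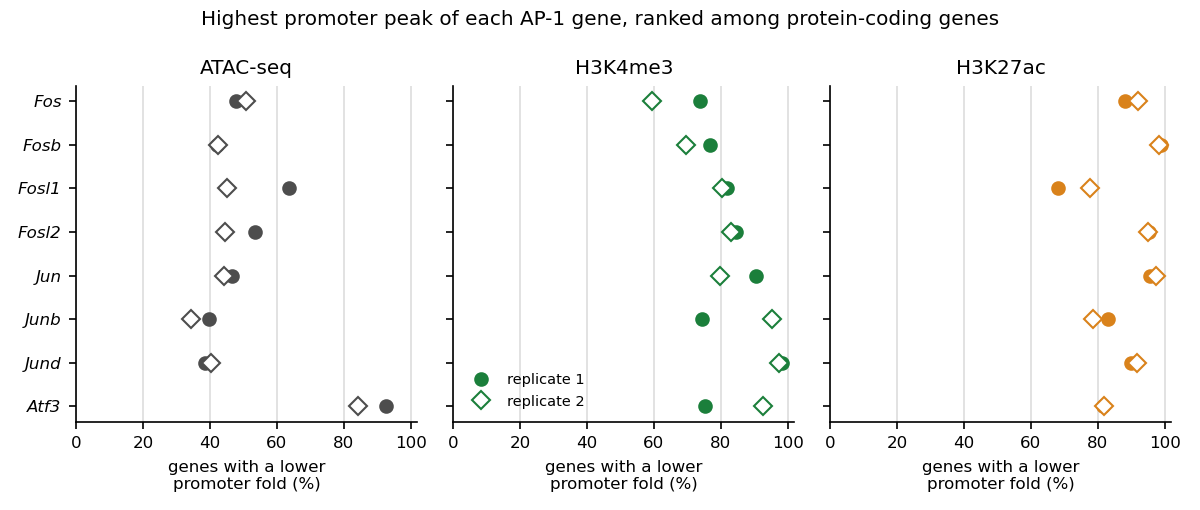
Percent of the other protein-coding genes with a lower highest promoter fold (horizontal axis) for each AP-1 gene, in replicate 1 (filled circles) and replicate 2 (open diamonds). For ATAC-seq *Atf3* stands at 92.5 and 84.4 and the other members between 34.3 and 63.6, whereas for H3K27ac all members lie at 68.0 or above.

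Among the Fos proteins' genes, *Fosb* had the strongest acetylation of the family. Its H3K27ac promoter peak had a fold of 39.86 in replicate 1 and 29.79 in replicate 2, above 98.8% and 98.3% of genes, and ranked 222 of the 24217 peaks and 339 of the 18589 peaks of the whole lists. *Fosl2* followed with H3K27ac folds of 30.07 and 23.79, and *Fos* with 22.1 and 20.52. *Fosl1* was lowest of all 8 members in both replicates, with 10.86 and 12.5 (68.0% and 77.6% of genes lower). The order of the 8 members by H3K27ac fold was nearly the same in both replicates (Spearman's rho across the 8 genes 0.95, and 0.9 for ATAC-seq), whereas the order by H3K4me3 fold was not (0.33). These correlations are over genes of the same libraries and carry no test.

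H3K4me3 at the Fos genes was of middling to high fold. *Fos* had folds of 26.69 and 13.38, which were above 73.8% and 59.5% of genes and were the lowest of the family in both replicates. *Fosb* had 28.26 and 17.66, *Fosl1* 30.85 and 22.03, and *Fosl2* 32.32 and 23.1. Their ATAC-seq folds were 10.01 and 9.27 at *Fos*, 8.64 and 7.36 at *Fosb*, 13.24 and 7.95 at *Fosl1*, and 11.24 and 7.81 at *Fosl2*. Replicate 2 was lower than replicate 1 in each of these 8 pairs of values, and since depth and background differ between libraries in ways the lists do not show, the difference between replicates was not read further.

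Among the Jun genes, *Jund* carried the highest H3K4me3 fold of the family in both replicates. It had folds of 45.35 and 33.05, above 98.2% and 97.3% of genes, and its peak ranked 339 of 20519 and 521 of 18006 in the whole lists. *Jun* had 36.3 and 21.69, and *Junb* 27.08 and 30.56. *Junb* stood above 74.5% of genes in replicate 1 and 95.3% in replicate 2, so that its place within the family depends on the replicate. In H3K27ac, *Jun* was next to *Fosb* with 30.28 and 27.95 (95.5% and 97.5% of genes lower), *Jund* had 23.76 and 20.23, and *Junb* 18.42 and 12.87. *Junb* also had the lowest ATAC-seq fold of the family in replicate 2 (8.0 in replicate 1 and 4.8 in replicate 2), and *Jund* the lowest in replicate 1 (7.71 and 6.76). *Jun* had 9.75 and 7.73. A low summit did not mean a small open region, since the widest ATAC-seq peak was 975 and 1037 bp at *Jun* and 963 and 1128 bp at *Jund*, wider than in 96.9% to 98.4% of genes.

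*Atf3*, the stress-induced member that can repress as a homodimer, had the highest ATAC-seq fold of the family, 21.47 and 16.51. This peak lay at −33238 to −32767 in replicate 1 (chr1:191216107-191216578), inside the gene and within 3 kb of the upstream start site at 191218039. No ATAC-seq peak covered that start in either replicate. The highest ATAC-seq peak at the main start had 11.51 and 8.82. H3K4me3 and H3K27ac were at the main start, with folds of 27.37 and 28.23 for H3K4me3 and 17.63 and 14.34 for H3K27ac. Within 3 kb of the upstream start, H3K4me3 was limited to a peak of 237 bp with a fold of 4.89 in replicate 1 alone. This peak did not reach that start either. The promoter windows of these 2 start sites of *Atf3* therefore both held open chromatin but were unlike in their histone marks.

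Wide H3K4me3 domains were shared by all 8 members. The widest promoter peak spanned 5824 and 4970 bp at *Fos* in replicates 1 and 2, 4358 and 3867 bp at *Fosb*, 3694 and 3853 bp at *Fosl1*, and 7714 and 4930 bp at *Fosl2*. It spanned 5839 and 5139 bp at *Jun*, 5128 and 3742 bp at *Junb*, 3851 and 2795 bp at *Jund*, and 4209 and 3080 bp at *Atf3*. Among all genes with such a peak the median width was 1631 and 1350 bp. Each member was therefore wider than 96.4% or more of protein-coding genes in both replicates, and the median member wider than 98.8% and 99.0%. Averaged over the replicates, the median of the members' percentiles was 98.9% ± 0.124 (SD, n = 2).

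The domains reached farther into the gene than upstream in both replicates at 7 members, and at *Atf3* in replicate 1 alone (−1575 to 1504 in replicate 2). At *Fos* the H3K4me3 peak ran from −2135 to 3688 in replicate 1 and from −1927 to 3042 in replicate 2, and it covered 100% and 89.9% of the gene. *Jun* and *Jund* were covered over their whole length (100%) in both replicates, and *Junb* over 72.7% in each. *Fosb* was covered over 49.8% and 42.8%, its domain running from −695 to 3662 in replicate 1, and *Fosl1* over 50.1% and 44.1%. Only 22.8% and 19.2% of the longer *Fosl2* and 11.4% and 6.86% of *Atf3* were covered. *Jund*, at 1668 bp the shortest member, is shorter than any of the 16 H3K4me3 widths given above.

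H3K27ac was wide at most members and narrow at *Atf3*. *Fosl2* had the widest promoter peak, with 5120 and 5245 bp, which ran from −992 to 4127 in replicate 1. At *Fos*, *Fosb*, *Jun*, *Junb* and *Jund* the widest peak measured between 2443 and 3604 bp, and at *Fosl1* 1670 and 1545 bp. In *Atf3* it measured 838 and 794 bp, below the median of 1183 and 1011 bp of all genes with a peak, although its fold there was above 81.6% and 81.9% of genes. An H3K27ac peak covered the main start in both replicates at 5 members, *Fos*, *Fosb*, *Fosl2*, *Jun* and *Jund*, and in neither at *Fosl1*, *Junb* and *Atf3*. At *Jun* 1 peak in replicate 1 (−1620 to 1983) corresponded to 2 in replicate 2 (−1484 to −217 and −1 to 2441), and the ATAC-seq peak over the start (−725 to 311 in replicate 2) lay across the gap between them. At *Junb* H3K27ac lay at 34 to 2985 and at −1290 to −195 in replicate 1, on both sides of the ATAC-seq peak over the start (−227 to 235). At *Fosl1* the H3K27ac peak began downstream of the start, at 168 and 191 in the 2 replicates. At *Atf3* the strongest began at 57 and 70, and replicate 1 had a weaker one upstream, at −613 to −216 with a fold of 6.13.

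**Figure D3:**
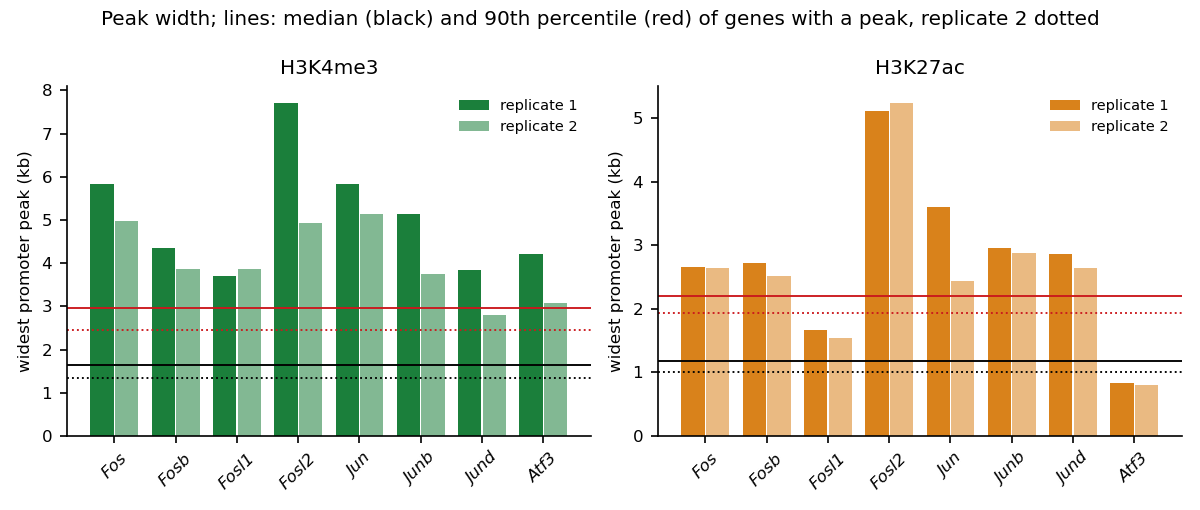
Width in kb of the widest promoter peak of each AP-1 gene (bars, replicate 1 dark and replicate 2 pale), with the median (black) and 90th percentile (red) of all genes that have a promoter peak, solid for replicate 1 and dotted for replicate 2. All 16 H3K4me3 bars exceed the red line of their replicate, while for H3K27ac *Fosl1* lies between the lines and *Atf3* below both.

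The H3K27me3 peaks of *Atf3* and *Fosl1* differed in strength and in place. At *Atf3* there were 5 promoter peaks in replicate 1, between −2645 and −771. Replicate 2 had 6, of which 5 lay between −2662 and −889 and 1 at 2109 to 2219. With q at or below 0.05, 3 remained in replicate 1, between −1921 and −771, and 6 in replicate 2. The strongest had folds of 5.64 and 5.13 and −log10 q values of 4.6 and 4.35. They were upstream of the H3K27ac peak at 57 to 894 and at the outer part of the H3K4me3 domain, which in replicate 1 ran from −1272 to 2936 with further short H3K4me3 peaks at −2229 to −1435 and −2713 to −2492. The repressive mark and acetylation at *Atf3* were thus side by side, in populations of cells in which it cannot be told whether the same alleles carried both.

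At *Fosl1* the H3K27me3 peaks lay inside the H3K4me3 and H3K27ac peaks. In replicate 1 they were at 1096 to 1211 and 1625 to 1747, and in replicate 2 at 770 to 922 and 1170 to 1355. Their −log10 q values were 0.38 and 0.93 in replicate 1 and 1.05 and 0.78 in replicate 2, so that none reached a q of 0.05, because the authors' H3K27me3 lists go down to a −log10 p of 3.01 without a limit on q. Counting peaks with q at or below 0.05 left 1 of 8 members with H3K27me3 in either replicate, *Atf3*, against 6.31% of all genes. Counting those with a −log10 q of 5 or more left 0, against 1.45%. Elsewhere in the windows of 50 kb either side of the genes, H3K27me3 peaks off the members' own promoters mostly belonged to other genes' promoters, *Ppm1n* and *Rtn2* near *Fosb*, *Mast1* and *Rtbdn* near *Junb*, and *Pde4c* near *Jund* (named after their values were seen). In the body of *Atf3* there were 3 further short peaks in replicate 1 and 2 in replicate 2, and none of these overlapped between the replicates. Distal H3K27me3 peaks found in both replicates numbered 0 at all 8 members, against 2.92% of genes with at least 1.

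Distal peaks were taken as those in the gene and 50 kb either side that touched no annotated promoter of any gene and overlapped between the replicates. ATAC-seq peaks of this kind were present at 8 of 8 members (68.3% of all genes), 68 in all. H3K27ac peaks of this kind numbered 11, at 5 of 8 members (17% of all genes), namely *Fos*, *Fosb*, *Fosl1*, *Fosl2* and *Junb*. *Jun*, *Jund* and *Atf3* had 0, although their windows held 7, 7 and 9 distal ATAC-seq peaks. Windows with many other genes hold fewer places that count as distal. Those of *Fos*, *Fosl2* and *Jun* held 0 other protein-coding genes, that of *Atf3* held 1, and those of *Jund*, *Fosb*, *Junb* and *Fosl1* held 5, 7, 9 and 11.

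*Fos* had the most distal H3K27ac peaks of the family, with 14 distal ATAC-seq and 5 distal H3K27ac peaks, more than 95.3% and 98.9% of protein-coding genes. They formed 3 acetylated regions between genes. The first, at chr12:85454508-85456299 with its H3K27ac summit at −18097, had H3K27ac folds of 10.35 and 12.72 and ATAC-seq folds of 15.44 and 14.66. The second, at chr12:85485404-85486005 with its summit at 11914, had H3K27ac folds of 9.96 and 8.83 and ATAC-seq folds of 21.5 and 14. The third, around 23568, had weaker H3K27ac (4.97 and 5.62) and ATAC-seq folds of 16.65 and 16.18. All 3 regions had a higher ATAC-seq fold than the *Fos* promoter itself, in both replicates.

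The second region was unlike a usual distal site in its H3K4me3. An H3K4me3 peak at chr12:85485564-85487901 was 2338 and 1986 bp wide, with folds of 22.39 and 15.87, above 97.8% of the distal H3K4me3 peaks of the genome. In replicate 2 this fold exceeded that of the *Fos* promoter (13.38), and in replicate 1 it did not (26.69). GENCODE M21 has no start site within 3 kb of it, since it would otherwise not have counted as distal. The first region also had H3K4me3, with folds of 7.64 and 4.73, and the third had it in replicate 1 alone.

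**Figure D4:**
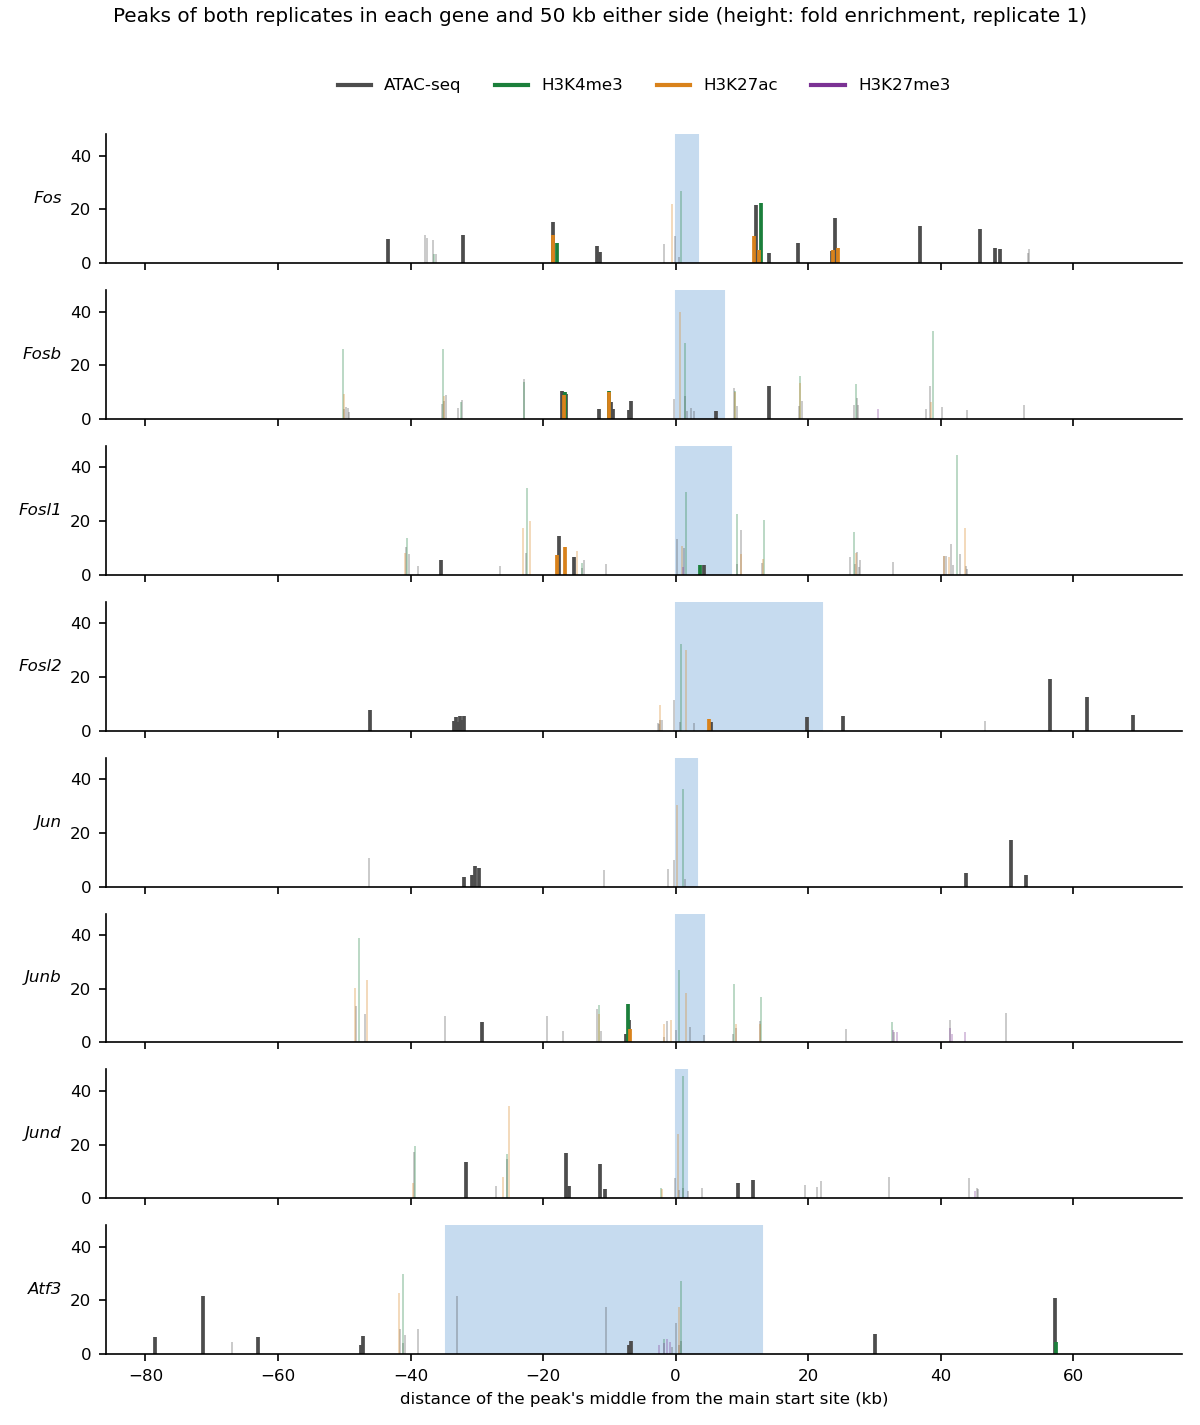
Peaks found in both replicates in each AP-1 gene and 50 kb either side, by distance of the peak's middle from the main start site in kb (horizontal axis, upstream to the left) and by the replicate 1 fold enrichment (height), with the gene shaded in blue. Thick lines are distal peaks and thin pale lines peaks at annotated promoters, and distal H3K27ac (orange) appears at *Fos*, *Fosb*, *Fosl1*, *Fosl2* and *Junb*.

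The other acetylated sites lay within 20 kb of the starts. *Fosb* had 2, both with ATAC-seq and H3K4me3. The nearer one, at chr7:19319506-19320661 with its summit at −9775, had H3K27ac folds of 9.96 and 8.46, and the farther one, at chr7:19326260-19327517 with its summit at −16874 in an intron of *D830036C21Rik*, had 8.81 and 7.38. *Fosl1* had its strongest at chr19:5430156-5431478, with its summit at −17157 and folds of 10.35 and 6.94, next to a second at −17979 with 7.28 and 5.15. The single site of *Junb*, at chr8:84985048-84986252 with its summit at −7330, had low H3K27ac folds of 4.98 and 4.05 but H3K4me3 folds of 14.34 and 8.8. At *Fosl2* the single site was in its own intron, at 4758, with folds of 4.22 and 4.05, just beyond the promoter's own H3K27ac peak. A further H3K4me3 peak counted as distal in *Fosl1*, of 258 bp in replicate 1, overlapped the promoter peak of replicate 2 and is a part of that domain.

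Strong distal ATAC-seq peaks without H3K27ac in both replicates were found at *Atf3*, *Jun* and *Jund*, which had no distal H3K27ac peak, and also at *Fosl2*. *Atf3* had the strongest of the family at chr1:191254456-191254828, at −71315 from the main start, with folds of 21.69 and 21.74 (above 99.4% of distal ATAC-seq peaks by the lower replicate). *Jun* had one at chr4:95001383-95001801, at 50642 in an intron of *Gm12694*, with 17.27 and 18.12. *Jund* had one at chr8:70682210-70682551, at −16611, with 16.88 and 18.93, and *Fosl2* one at chr5:32192097-32192592, at 56404, with 19.11 and 16.91. None of these 4 peaks had H3K27ac in both replicates, and those of *Atf3* and *Fosl2* were touched by an H3K27ac peak with a fold of 4.22 in replicate 1 alone. Nothing in the lists ties a distal peak to the gene it was counted with.

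Several distal open sites of the family held the letters that AP-1 itself binds. These stretches are shown because each lies in the strongest distal ATAC-seq peak of its gene, or, for *Fosb*, in a distal peak that H3K4me3 and H3K27ac peaks of both replicates overlapped. They are given on the plus strand of GRCm38.p6 (mm10), and capitals mark TGAGTCA or TGACTCA.
*Junb* (chr8:84985635-84985779, plus strand): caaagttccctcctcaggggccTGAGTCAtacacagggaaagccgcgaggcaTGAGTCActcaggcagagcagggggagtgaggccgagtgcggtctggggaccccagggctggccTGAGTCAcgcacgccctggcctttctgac
*Fosb* (chr7:19327326-19327376, plus strand): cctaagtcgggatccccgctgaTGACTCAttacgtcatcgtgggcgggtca
*Fosl1* (chr19:5430028-5430078, plus strand): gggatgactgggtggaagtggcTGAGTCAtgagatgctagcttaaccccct
*Fosl2* (chr5:32192212-32192262, plus strand): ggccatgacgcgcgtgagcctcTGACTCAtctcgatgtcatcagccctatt
*Jun* (chr4:95001566-95001644, plus strand): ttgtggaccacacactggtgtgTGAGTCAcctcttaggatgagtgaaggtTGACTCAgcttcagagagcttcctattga
*Jund* (chr8:70682309-70682359, plus strand): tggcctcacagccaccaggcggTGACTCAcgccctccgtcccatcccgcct

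The *Junb* stretch, at −7036 to −6942 from the start by the middle of its matches, was the only one of the family with 3 copies of the letters, and its ATAC-seq peak (folds 8.22 and 8.11) overlapped H3K4me3 and H3K27ac peaks in both replicates. The *Jun* stretch had 2 copies, 39 and 11 bases from the summit. In *Jund* and *Fosl2* the letters were −4 and 32 bases from the summit, and in *Fosl1* 17 bases. The ATAC-seq peak of *Fosl1* overlapped H3K27ac peaks in both replicates, but the printed stretch lay in a gap between them. H3K27ac peaks reached the printed stretch of *Fosb* in replicate 1 alone. Letters in the strongest distal ATAC-seq peak were thus found at 5 of 8 members (*Fosl1*, *Fosl2*, *Jun*, *Junb* and *Jund*), against 25.9% of the 14990 genes with a distal ATAC-seq peak. That share is not matched for the number or fold of peaks, since the median protein-coding gene had 2 distal ATAC-seq peaks and the median member 8. *Fos*, *Fosb* and *Atf3* were the members without them there.

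Over all distal ATAC-seq peaks of the family the share was nearer to the genome's. Within 100 bp of the summit, 18 of 68 peaks (26.5%) held the letters, against 10644 of 48588 (21.9%) in all distal ATAC-seq peaks. The share per member ran from 1 of 14 at *Fos* and 2 of 14 at *Fosl2* to 4 of 10 at *Fosb*, with 2 of 4 at *Fosl1*, 3 of 7 at both *Jun* and *Jund*, 1 of 3 at *Junb* and 2 of 9 at *Atf3*. *Fos*, with the most distal sites, thus had few with the letters, and the 3 acetylated regions of *Fos* had none within 100 bp of their ATAC-seq summits. Over the genome the letters were in 9.66% of the 39987 ATAC-seq peaks at promoters, and among distal peaks their share was 15.4% of the 12147 peaks with the lowest fold and 30.7% of the 12147 with the highest. They were in 17.8% of the 4000 distal peaks with H3K27ac in both replicates and in 22.3% of the 44588 without.

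**Figure D5:**
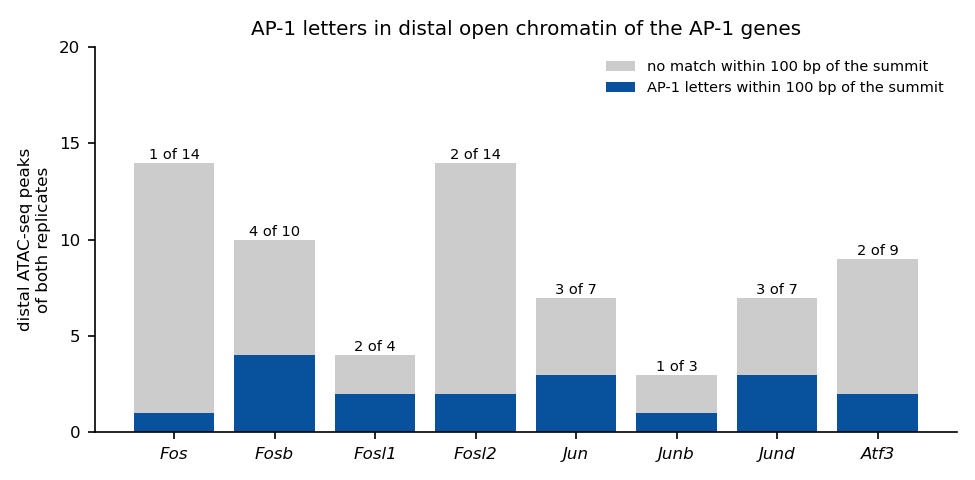
Number of distal ATAC-seq peaks found in both replicates for each AP-1 gene (grey) and, in blue, those with TGAGTCA or TGACTCA within 100 bp of the summit. *Fos* and *Fosl2* have the most peaks, 14 each, with 1 and 2 matches.

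Promoter rank patterns over the 8 libraries separated *Fosl1* and *Atf3* from the rest. The mean absolute difference of the fold percentiles was smallest between *Fosl2* and *Jun*, 2.35 percentile points. From the median pattern of the family, *Atf3* differed by 39.4 points and *Fosl1* by 30.6, and the other 6 members by 2.82 to 6.87. Most of this distance is H3K27me3, at which a listed peak moves a gene from the lowest rank to near the highest. *Fosl1* stood at 95.5 and 93.4 in H3K27me3 through peaks that did not reach a q of 0.05, so that its distance rests on the authors' looser limit for that mark. The protein-coding genes nearest to the family's median pattern were *Chmp2a* (2.03 points), *BC003965* (2.07), *Cct5* (2.27), *Fam173b* (2.27) and *Prrc2b* (2.35).

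Other genes around AP-1 were given as counts of promoters marked in both replicates. Over all protein-coding genes the shares were 67.8% for ATAC-seq, 60.8% for H3K4me3, 46.6% for H3K27ac and 4.81% for H3K27me3. Of 13 bZIP dimer partners, 12 had ATAC-seq, 11 H3K4me3 and 8 H3K27ac. *Mafg* had no promoter peak of any of the 4 features in either replicate. *Batf* had H3K4me3 in replicate 1 alone (fold 3.59), and *Mafa* had H3K27me3 in both. Among 19 kinases and factors upstream of AP-1, such as the MAP kinases, 17 had H3K4me3 and 16 H3K27ac, and *Mapk10*, the kinase JNK3 of neurons, and *Map2k1* had no H3K4me3. All 8 restraints of AP-1, phosphatases and repressors that end the response, had all 3 active features and 0 had H3K27me3. The median percentile of H3K4me3 width was 99.2 in the restraints, beside 98.9 in AP-1 itself and 98.8 in the muscle stem cell markers, against 84.2 in the bZIP partners and 80.8 in the upstream kinases.

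Classical targets of AP-1 were marked in part. Of 12 such genes, 9 had ATAC-seq and 6 had H3K4me3 and H3K27ac, beside the 60.8% and 46.6% of all genes. The 6 without H3K4me3 in both replicates were *Il6*, *Mmp3*, *Mmp9*, *Mmp13*, *Spp1* and *Timp1*, which encode a cytokine, matrix proteases, a secreted matrix protein and an inhibitor of matrix proteases. Of these, *Il6* (fold 3.1), *Mmp9* (4.13) and *Timp1* (5.21) had an H3K4me3 peak in replicate 1 alone. Of 17 immediate early genes outside AP-1, 16 had H3K4me3 and 14 H3K27ac, and *Npas4*, a neuronal early gene, had no H3K4me3. In 4 of them, *Egr2*, *Egr3*, *Egr4* and *Nr4a2*, H3K27me3 was found in both replicates (4.81% of all genes), so that *Atf3* and *Fosl1* were not alone among such genes. Their median percentile of H3K4me3 width was 98.0.

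The identity of the cells was checked with marker genes. All 13 MuSC markers had ATAC-seq (67.8% of all genes) and H3K4me3 (60.8%) at their promoters in both replicates. H3K27ac (46.6%) was found at 12, *Calcr* being the one without. Of 6 defining markers of blood, endothelial, fibro-adipogenic, myofibre and neuronal cells, 4 had ATAC-seq in both replicates, near the share of all genes. Of the same 6, 0 had H3K27ac, and 2, *Pdgfra* and *Acta1*, had H3K4me3 and H3K27me3 (4.81% of all genes had H3K27me3). The blood marker *Ptprc* had H3K27ac (fold 4.78) and ATAC-seq (6.47) in replicate 2 alone and H3K4me3 (4.43) in replicate 1 alone. Whether other cells had a part in the members' peaks was not tested. The lists held between 94574 and 140937 peaks for ATAC-seq and between 6080 and 24217 for the histone marks. Read numbers are not among their columns, which leaves the depth unknown. A promoter without a listed peak may lack the feature or fall below the authors' limit. It may also have lost reads to the authors' filters on mapping quality, duplicates and blacklisted regions, which was not tested. Some start sites of other genes lie in the members' promoters, *Gm10463* at *Fosl2*, *Junos* at *Jun* and *Gm11175* at *Jund*, and peaks there cannot be told apart between the overlapping genes.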

How the data were processed

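MuSCs of Pax7Cas9 mice were profiled by ATAC-seq and by ChIP-seq for H3K4me3, H3K27ac and H3K27me3, with 2 replicates each. The authors trimmed reads with Trim Galore (0.6.10), aligned them to mm10 with BWA (0.7.17-r1188), removed reads of low mapping quality and duplicates with SAMtools (1.5) and Sambamba and blacklisted regions with BEDTools, corrected the Tn5 offset with deepTools (3.5.5) and called peaks for each library with MACS2 (2.2.6). The deposited lists give each peak's fold enrichment over background, its −log10 p-value and −log10 q-value, and the offset of its summit. Peaks were called with a q limit for ATAC-seq, H3K4me3 and H3K27ac, as the smallest −log10 q of the deposited lists shows (1.73 and 2.02 for ATAC-seq and 1.32 to 1.39 for the others), and down to a −log10 p-value of 3.01 for H3K27me3. No read numbers are in the lists, so that depth is unknown and no counting interval could be given.

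Members and gene lists were chosen with earlier results of these data known. Peaks were joined to GENCODE M21 start sites (3 kb either side, overlap from 1 bp), and fold was used only within a list, as a percentile over protein-coding genes. Replicate peaks were joined from 1 bp of overlap, with values of replicate 1 first. Letters were searched on both strands of GRCm38.p6. RefSeq promoters of this build matched 7 of 8 members, all but *Fosl1*. The window of 500 bases was chosen after 250-base promoters had been searched. All members were named. From the other lists, genes without H3K4me3 (at most 6 a list) or with H3K27me3 in both replicates were named, as were neighbours with a start within 3 kb, the 5 genes nearest in pattern and the strongest distal peaks. Further distal peaks and the printed stretches were chosen after their values were seen. No test was made, since no condition was compared. Overlap code was tested on simulated intervals. Python 3.11.15, numpy 2.4.6, pandas 2.3.3, pysam 0.24.0, matplotlib 3.10.9 and samtools 1.23.1 were used. The other samples of the study were not used here, and some genes of the lists are not reported here.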

Additional observations from a re-analysis of the deposited data

How the results depend on the processing

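Of the alternatives tried, 59 values stayed within 1.5 times the reported count or within the spread of the replicates and 9 moved. The members with H3K27me3 in either replicate went from 2 to 1 with q at or below 0.05 and to 0 with a −log10 q of 5 or more. Distal H3K27ac peaks went from 11 to 7 when the replicate 2 peak had to cover at least 50% of the replicate 1 peak, and ranged from 14 to 16 with 1 replicate left out. Distal ATAC-seq peaks went from 68 to 35 with 20 kb either side and to 106 with 100 kb, and from 75 to 89 with 1 replicate left out. The share of distal ATAC-seq peaks with the AP-1 letters was 19.1% within 50 bp and 27.9% within 250 bp of the summit. It was 20.2% to 24% with 1 replicate left out. The share over all distal peaks (21.9%) is given for the main setting alone, so whether the family stood above it under these settings cannot be judged. The 500-base window was chosen after seeing the data. The RefSeq promoters, 250 bases before the RefSeq start, were searched first. They held a CRE and a CArG box in 0 of 7 members (1.99% and 1.37% of 20150 promoters). They held TATAAA in 1, CCAAT in 2, GGGCGG in 5 and the AP-1 letters in 0. For *Jund* and *Fosl2* the RefSeq start is far from the main start, so that the 2 searches differ in place as well as in length. The presence of ATAC-seq, H3K4me3 and H3K27ac at all 8 promoters held under each alternative tried for it. No paired analysis was possible because the results come from no test. Peaks near the authors' limits depend on depth, which is unknown.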
